A study of Mus musculus with 2 samples.

Results

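Of 7 acute-phase genes examined in cultured mouse intestinal myofibroblasts, 3 measured at least 2-fold higher after the cells had met a homogenate of intestinal eosinophils. These were Saa3, Steap4 and Lcn2, among 27 of 14065 genes above background (0.192%) that measured at least 2-fold higher. Lcn2 was under background without homogenate, and its difference was bounded only at 1.87-fold or more. With such values set to background, Saa3 and Steap4 stayed past 2-fold, beside 0.135% of genes. Ptx3 was 1.73-fold higher, Hp read nearly the same on both arrays, and Saa1 and Saa2 were not seen above background. The genes, which are the serum amyloid A genes Saa1, Saa2 and Saa3 with Lcn2, Steap4, Hp and Ptx3, are 7 of 22180 genes named on the array. They were chosen by name from genes known for the acute-phase response, with the values of this same contrast in view. Their differences are therefore a description and no test was made.

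Subepithelial myofibroblasts are contractile stromal cells that lie beneath the gut epithelium. Here they came from the small intestine of BALB/c mice without an engineered allele. The non-stimulated cells were cultured without homogenate. The stimulated cells had homogenate of intestinal eosinophils at 5 mg/ml for 1 day. Each condition was grown in triplicate and the RNA of its 3 cultures was pooled, so that each is 1 array (GeneChip Mouse Gene 2.0 ST) and neither has a replicate. Every difference below describes these 2 pools and carries no error.

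The acute-phase response is the change in secreted proteins that follows injury or infection. The cytokines IL-1, IL-6 and TNF start it, and it runs through the transcription factors NF-kB, STAT3 and C/EBP beta and delta. The liver supplies most acute-phase protein in the blood, but Saa3, Lcn2 and Ptx3 are also made by stromal cells, macrophages and epithelia where inflammation takes place. Serum amyloid A proteins are small apolipoproteins carried on lipoprotein particles. Lipocalin 2, the product of Lcn2, withholds iron from bacteria by binding their siderophores, haptoglobin (Hp) captures free haemoglobin, and STEAP4 reduces iron and copper ions at membranes. Pentraxin 3 (Ptx3) binds microbes and complement components.

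The bases before the start sites of the genes are shown because several of these genes were higher together, while Saa1 and Saa2 were not seen above background. RefSeq (GRCm38.p6, the C57BL/6J reference and not BALB/c) held a window for 6 of the 7 genes, and Hp had none in the table used. Each sequence gives the 250 bases before the start, 5′ to 3′ on the strand of the gene. Capitals mark matches, on either strand, of the C/EBP motif TTGCNNAA, the STAT motif TTCNNNGAA and the kB consensus of NF-kB. The stretches lie at chr7:46715677-46715926 for Saa3, chr5:7960222-7960471 for Steap4, chr2:32387740-32387989 for Lcn2 and chr3:66219637-66219886 for Ptx3. Those of Saa1 and Saa2 lie at chr7:46742981-46743230 and chr7:46751583-46751832. Saa3, Lcn2 and Saa1 are on the minus strand and Steap4, Ptx3 and Saa2 on the plus strand.
Saa3: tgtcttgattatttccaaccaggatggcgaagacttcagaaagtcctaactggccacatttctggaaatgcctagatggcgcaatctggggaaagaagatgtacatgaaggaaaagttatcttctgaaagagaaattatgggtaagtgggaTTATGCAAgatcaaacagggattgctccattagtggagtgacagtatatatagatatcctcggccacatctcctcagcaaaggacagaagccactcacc
Steap4: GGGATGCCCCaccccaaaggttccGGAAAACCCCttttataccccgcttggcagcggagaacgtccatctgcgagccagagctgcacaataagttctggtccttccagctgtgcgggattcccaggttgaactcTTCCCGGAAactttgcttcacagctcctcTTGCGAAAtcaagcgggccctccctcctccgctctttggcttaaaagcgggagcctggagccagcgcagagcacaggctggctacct
Lcn2: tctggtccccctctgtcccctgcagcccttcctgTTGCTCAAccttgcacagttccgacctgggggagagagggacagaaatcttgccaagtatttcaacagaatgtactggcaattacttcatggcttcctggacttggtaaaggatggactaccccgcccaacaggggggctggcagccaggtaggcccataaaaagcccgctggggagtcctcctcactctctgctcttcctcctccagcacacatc
Ptx3: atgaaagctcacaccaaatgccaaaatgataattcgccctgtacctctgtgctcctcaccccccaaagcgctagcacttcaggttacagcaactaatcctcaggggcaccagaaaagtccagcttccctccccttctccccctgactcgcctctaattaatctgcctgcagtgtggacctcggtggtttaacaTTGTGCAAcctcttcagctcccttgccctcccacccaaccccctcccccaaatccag
Saa1: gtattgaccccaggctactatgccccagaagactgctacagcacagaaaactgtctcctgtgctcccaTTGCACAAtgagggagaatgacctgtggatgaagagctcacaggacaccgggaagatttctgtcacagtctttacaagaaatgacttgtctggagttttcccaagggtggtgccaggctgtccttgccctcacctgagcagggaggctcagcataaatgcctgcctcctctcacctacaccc
Saa2: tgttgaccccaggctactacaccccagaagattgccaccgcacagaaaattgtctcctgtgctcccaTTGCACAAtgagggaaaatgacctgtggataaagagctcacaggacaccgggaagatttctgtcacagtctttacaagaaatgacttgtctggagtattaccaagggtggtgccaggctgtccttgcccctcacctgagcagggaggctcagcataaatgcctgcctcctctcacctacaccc

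A C/EBP match lay in all 6 windows of 300 bases, which run from 250 bases before to 50 bases after the start. Of all 32851 such windows in the table, 10.8% held one. The match was not particular to the chosen genes. Saa4, which was not among the 7 and was under background on both arrays, had 2 of them. They lay at 245 to 238 and at 52 to 45 bases before its start, in bases not shown here. In Saa3 the match was TTATGCAA, read on the opposite strand as TTGCATAA, at 99 to 92 bases before the start. In Steap4 it was TTGCGAAA at 87 to 80 bases before, and in Ptx3 TTGTGCAA at 57 to 50 bases before. The match of Lcn2, TTGCTCAA, lay further out, at 216 to 209 bases. Saa1 and Saa2 both carried TTGCACAA, at 182 to 175 and 183 to 176 bases before the start. Saa1 and Saa2 were not above background on either array, so whether they differed is not known and nothing about the match is read from them. The windows of this pair are near copies of each other, with 94.8% identical positions in the alignment of the bases before the start, against 52.2% between Saa1 and Saa3 and 52.4% between Saa2 and Saa3.

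STAT and kB matches were found in fewer of these windows. A STAT match was present in 1 of the 6, TTCCCGGAA in Steap4 at 116 to 108 bases before the start, and in 8.30% of all windows. The kB consensus matched in 2 of the 6 windows and in 8.46% of all. Steap4 had a pair of them, at 250 to 241 and at 226 to 217 bases before the start, and the overlapping pair in Ptx3 ran over or past the start site and is not in the bases shown. No match overlapped one of another motif. These are matches of letters only, and no binding was measured.

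Values are log2 readings of 1 probeset per gene, as deposited after RMA, a method that corrects background, sets both arrays to one distribution and summarises the probes. Background was set at the 95th percentile of 1405 probesets for odorant and pheromone receptors (Olfr, Vmn1r and Vmn2r genes). Most of these genes were assumed to be silent in these cells, which was not tested. This level was 5.58 without and 5.57 with homogenate, and 14065 genes passed it on either array. Of the 7 acute-phase genes, 6 had a probeset of their own and 5 of these were above background on at least 1 array. Saa3, Ptx3 and Hp were above it on both arrays and Lcn2 and Steap4 on the stimulated array alone. Passing through the stimulated array alone makes a gene higher there by construction, so the count of 5 says nothing about direction.

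**Figure D1:**
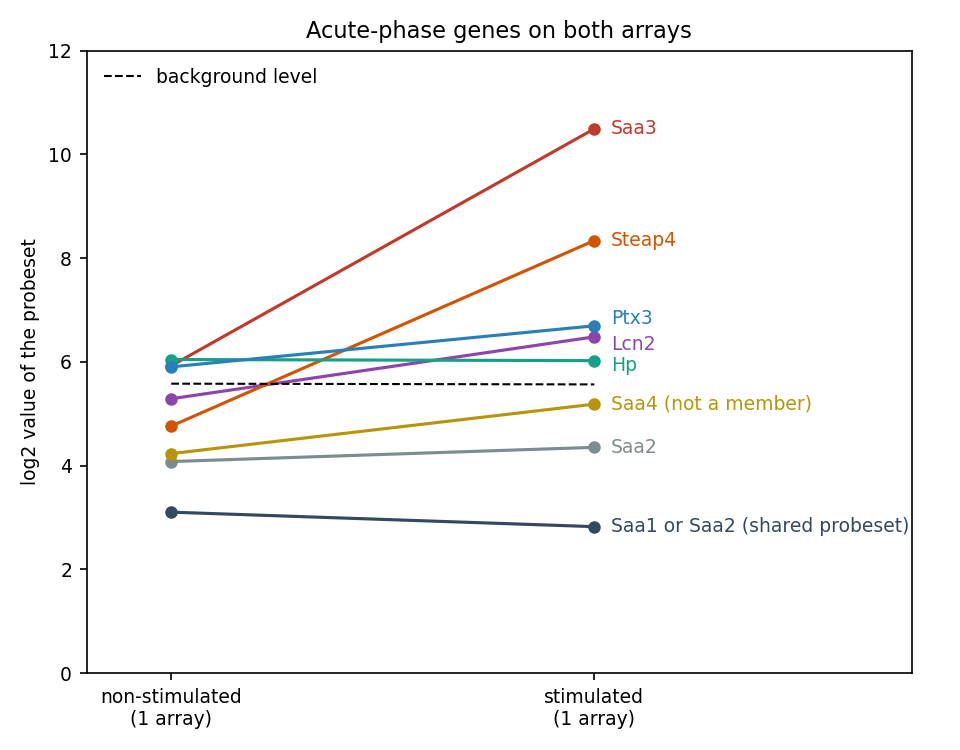
Log2 value of each probeset (vertical axis) without and with homogenate, 1 array each, with the background level as a dashed line. Saa3 and Steap4 end well above the level at 10.50 and 8.34, Hp stays level, and Saa2, the probeset shared by Saa1 and Saa2, and Saa4, which is shown for comparison, lie under background on both arrays.

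Saa3, the serum amyloid A gene known for its expression outside the liver, read 5.93 without homogenate and 10.50 with it. It was thus barely expressed over background in cells cultured alone, by 0.34 on the log2 scale, and far above it with homogenate. The difference of 4.57, or 23.7-fold, was the highest of the 14065 genes. Since the lower reading was close to background, the size depends on where that level is set. With the 99th percentile of the receptor probesets as background, at 6.80 and 6.65, Saa3 was at least 12.9-fold higher. More cells expressing a gene and more RNA per cell cannot be told apart in pooled RNA, here or for the genes that follow.

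Saa1 and Saa2, the serum amyloid A genes of the liver and of gut epithelium, were not detectable over background in either condition. The probeset of Saa2 read 4.08 without and 4.35 with homogenate, both well under background. Saa1 had no probeset of its own. The probeset that the annotation gives to both Saa1 and Saa2 read 3.10 and 2.82. No fold is given for either gene. Saa4, the family member that is expressed constitutively in liver and was not among the 7, read 4.23 and 5.19 and was under background on both arrays as well. Of the 4 Saa genes, Saa3 was therefore the only one read above background on these arrays.

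Steap4, the metalloreductase, read 4.76 without homogenate, under background, and 8.34 with it. The measured difference was 3.58, the third highest of all genes. Against the background level this was at least 6.77-fold higher, which still ranked at place 4 when all values under background were raised to that level. With the 99th percentile as background, the bound was at least 2.91-fold.

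Lcn2, the siderophore-binding lipocalin, read 5.29 and 6.48, the first value under background and the second 0.92 above it. The measured difference was 1.19, at place 18 from the highest, and Lcn2 was at place 25 when all values under background were raised to that level. Against the background level Lcn2 was at least 1.87-fold higher, short of 2-fold. At the 99th percentile Lcn2 was under background on both arrays, and no fold could be given. Of the 3 genes past 2-fold it was the weakest reading.

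Ptx3, the long pentraxin, read 5.91 and 6.70 and was above background on both arrays. The difference of 0.79 put it at place 48 of 14065. At the 99th percentile the non-stimulated value was under background and the stimulated value above it by too little for a bound over 1. Hp, the haemoglobin-binding acute-phase protein, read 6.05 and 6.03, a difference of -0.02 at place 8043. It was 0.47 and 0.46 above background.

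None of the 7 was at least 2-fold lower, against 0.0427% of all genes. As the 7 were selected on this contrast, nothing is read from this share or from those of 0.192% and 0.135% for higher genes. The differences can also be placed among genes of like brightness, in 4 equal sets by mean value of both arrays. In the set of Saa3 the central 95% of differences lay between -0.29 and 0.32, and in that of Steap4 and Ptx3 between -0.39 and 0.36. In the set of Lcn2 and Hp they lay between -0.51 and 0.48. The mean takes in the stimulated value, so a large rise itself moves a gene to a brighter set. By non-stimulated readings alone, Saa3, Steap4 and Ptx3 would fall in the set of Lcn2 and Hp, with its wider spread. By differences as measured, Saa3 and Steap4 were the highest of their sets, and 2 of the 3517 genes in the set of Lcn2 exceeded it. Those of Steap4 and Lcn2 start from readings under background. Ptx3 was exceeded by 9 of 3516. This spread is between genes and does not replace a replicate.

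**Figure D2:**
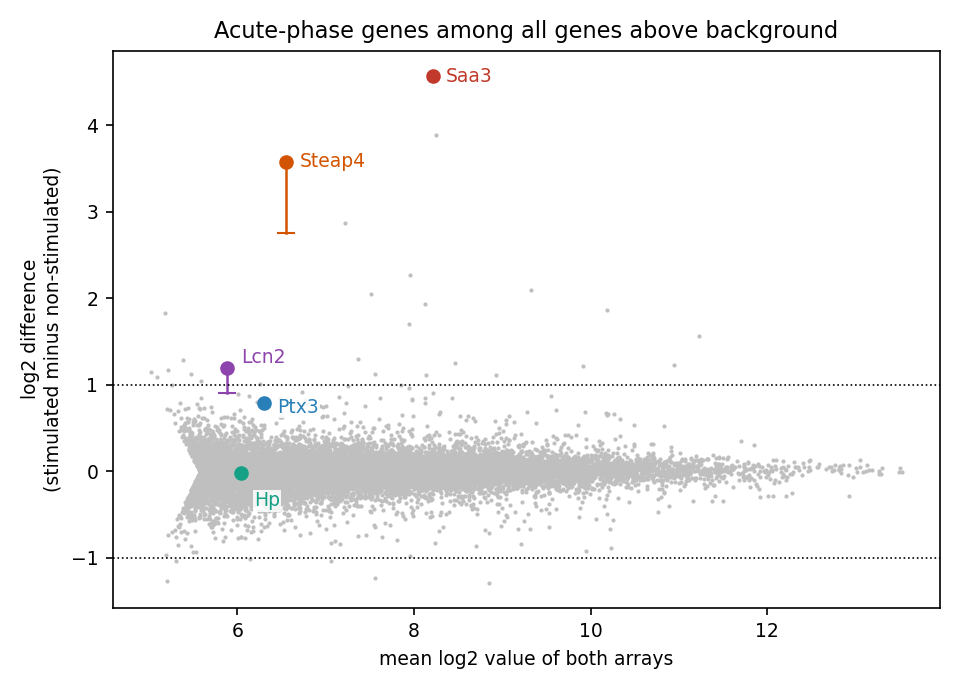
Log2 difference (stimulated minus non-stimulated, vertical axis) against mean log2 value of both arrays (horizontal axis) for the 14065 genes above background, in grey, with the 5 acute-phase genes that were among them in colour. Vertical bars run down to the bound set by the background level for Steap4 (2.76) and Lcn2 (0.90), and dotted lines mark 2-fold.

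Genes with the most similar change were found by the gap between log2 differences as measured, over only 2 arrays. Steap4 and Lcn2 were under background without homogenate, and their differences are bounded only at 2.76 and 0.90. Which genes are nearest to these 2, and how many, thus rests on readings under background. Nearest to Saa3, and also to Steap4, were the neutrophil-attracting chemokine genes Cxcl5 and Cxcl1 and the stromelysin gene Mmp3. Cxcl5 differed by 3.88, which is 0.69 below Saa3 and 0.31 above Steap4. Cxcl1 differed by 2.87 and Mmp3 by 2.27, so that no gene outside the 7 came within 0.1 of Saa3 or Steap4. Around Lcn2 lay 8 such genes, the nearest being the stromelysin gene Mmp10 (1.22), the monocyte-attracting chemokine gene Ccl7 (1.22) and the cystine transporter gene Slc7a11 (1.25). Around Ptx3 lay 24, led by the C/EBP family gene Cebpd (0.79), Fam110c (0.80) and the NF-kB cofactor gene Bcl3 (0.79). Hp shared its place near 0 with 6570 genes, of which Tmem18, Lypd5 and Ift81 were nearest.

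Genes next to Saa3, Lcn2 and Steap4 on their chromosomes did not show differences of that size. The 4 Saa genes lie together on chromosome 7. Next to them and above background were Saal1 (6.37 and 6.42), Sergef (6.58 and 6.80) and Hps5 (7.996 and 7.86), and the serotonin synthesis gene Tph1 (3.90 and 4.52) was under background. The 6 genes around Lcn2 on chromosome 2, Golga2, Dnm1, Ciz1, Ptges2, Slc25a25 and Naif1, were all above background and differed by between -0.20 and 0.03. Around Steap4 on chromosome 5 were its relative Steap1 (8.92 and 9.16) and the genes Sri (9.47 and 9.44), Adam22 (6.25 and 6.02) and Dbf4 (7.31 and 7.37), all above background. Zfp804b and Tex47, which lie between Steap1 and Steap4, were under background on both arrays.

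**Figure D3:**
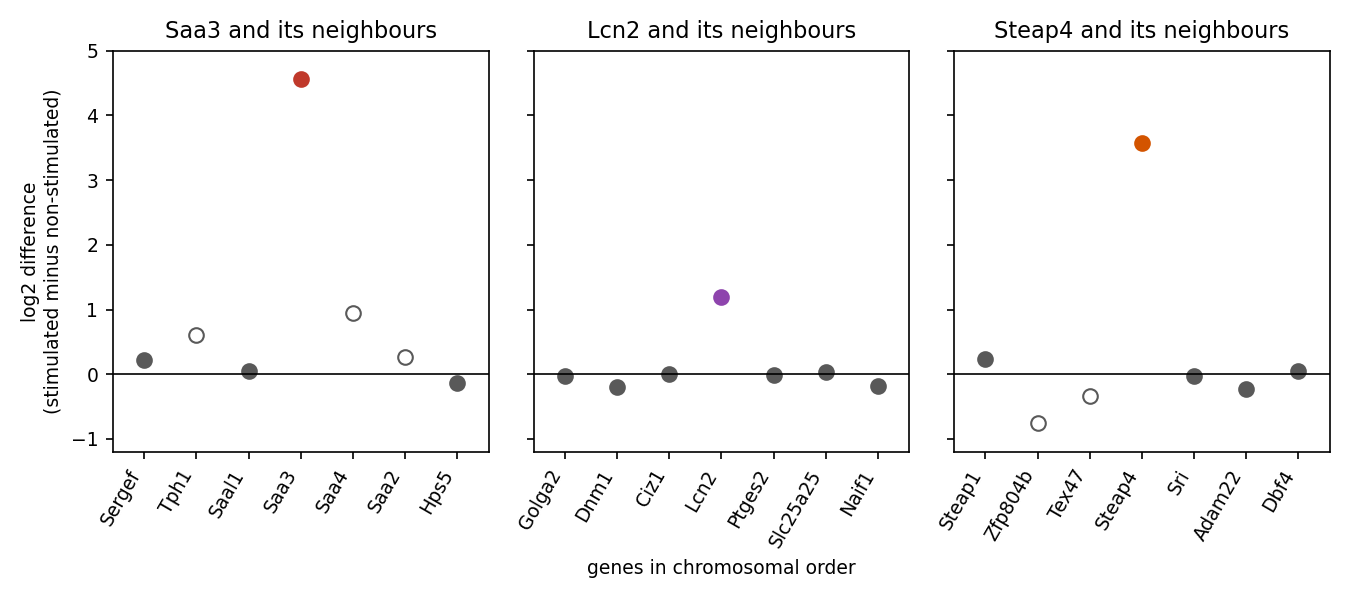
Log2 difference (stimulated minus non-stimulated, vertical axis) of Saa3, Lcn2 and Steap4 (coloured) and of the nearest 3 genes on each side that had a named probeset, in chromosomal order (horizontal axis, not to scale). Open circles are genes under background on both arrays, and the filled grey circles lie between -0.23 and 0.24.

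The rest of the acute-phase pathway is described by lists of genes, each beside the share of all genes above background that were higher by any amount on the stimulated array, 50.2%, and their median difference of 0.00. A gene that passed background on 1 array alone had to read higher there, so directions are also given for genes above background on both arrays, of which 50.3% read higher on the stimulated array. The lists were chosen with earlier results of these data known. Among other acute-phase proteins, 26 were on the array under their own name and 10 of these were above background. Of these 10 genes 8 had a higher and 2 a lower value with homogenate, and the median was 0.19. On both arrays 6 passed background, and of these 5 read higher and 1 lower, at a median of 0.09. Ceruloplasmin, Cp, the copper-carrying ferroxidase, read 7.16 and 9.09 and was the only one at least 2-fold higher, at 3.82-fold. The protease inhibitor gene Serpina3n read 7.53 and 8.18, a 1.57-fold difference, and the lipopolysaccharide-binding protein gene Lbp read 5.36 and 5.76, at least 1.14-fold. The metal-binding protein gene Mt2, with the highest reading of the list, read 11.92 and 11.97. The pentraxins of the liver, Crp and Apcs, and the acid glycoprotein genes Orm1, Orm2 and Orm3, named after their values were seen, were under background on both arrays. Of 5 genes whose proteins fall in the acute phase, Apoa1 alone was above background, at 5.90 and 6.04.

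Cytokines that start the response were mostly low or level. Of 11 such genes, 6 were above background on at least 1 array, 4 of them higher and 2 lower, at a median of 0.19. On both arrays 4 passed, 3 higher and 1 lower, also at 0.19. Il6 read 7.46 and 8.42, a 1.95-fold difference, Il11 6.70 and 6.94, and Il17f 5.28 and 5.61, at least 1.02-fold. Il1a, Il1b, Tnf, Il17a and Il22 were under background on both arrays (named after their values were seen). Their receptors were measured more clearly. Of 12 receptor genes, 10 were above background on both arrays and all 10 were higher with homogenate, none by 2-fold, with a median of 0.29. The IL-1 receptor genes Il1r1 (7.67 and 8.30) and Il1rap (8.31 and 8.74) and the oncostatin M receptor gene Osmr (10.03 and 10.64) differed most, by 0.63, 0.43 and 0.61, while the shared signalling chain Il6st read 10.96 and 11.04.

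Of 18 transcription factors and regulators of acute-phase genes, all above background on both arrays, 14 were higher and 4 lower, none by 2-fold, at a median of 0.26. The inhibitor Nfkbia read 7.70 and 8.54, Cebpd 6.83 and 7.63, and Bcl3 7.73 and 8.51, or 1.80-fold, 1.73-fold and 1.73-fold higher. The C/EBP beta gene, Cebpb, named after its values were seen, read 8.29 and 8.77. Stat3, with the highest reading of the list, differed by 0.03 (10.49 and 10.52).

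Relatives of the 7 genes differed less than Saa3 or Steap4 did. Of 12 relatives on the array, 8 were above background, of which 6 read higher and 2 lower, none past 2-fold, and the median was 0.19. Without Lcn8, which passed on the stimulated array alone, 5 read higher and 2 lower, and the median was 0.14. Steap1 was 1.18-fold and Steap2 (10.09 and 10.46) 1.29-fold higher, and both were clearly expressed without homogenate, unlike Steap4. The lipocalins Apod (11.73 and 11.83) and Lcn8 (5.20 and 5.70) differed by 0.10 and 0.50, the latter from under background and by a bound of at least 1.09-fold.

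Receptors and binding partners of the proteins were level, apart from Mmp9. Of 16 on the array, 10 were above background, 7 higher and 3 lower, with a median of 0.05. Mmp9, a gelatinase that lipocalin 2 can bind, read 8.27 and 10.37, or 4.29-fold higher. The lipocalin 2 receptor gene Slc22a17 read 7.09 and 7.25, the serum amyloid A receptor gene Ager 6.08 and 5.85, and the scavenger receptor gene Lrp1, the highest reading, 11.44 and 11.47. Named after their values were seen, the serum amyloid A receptor gene Fpr2 (3.57 and 2.71), the haptoglobin receptor gene Cd163 (4.92 and 4.70) and Tnfaip6, whose product binds pentraxin 3 (5.57 and 5.52), were under background on both arrays.

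Metal-handling genes, among which STEAP4, lipocalin 2 and haptoglobin act, read higher with homogenate for 10 of 12 above background, and their median was 0.25. Of the 11 that passed on both arrays 9 were higher, with a median of 0.26. Cp, also in this list, was again the only one past 2-fold. The haem-degrading Hmox1 read 9.93 and 10.59 and the iron importer gene Slc11a2 8.402 and 8.98, which are 1.58-fold and 1.495-fold differences. Fth1, the ferritin heavy chain, had the highest reading and differed by 0.13 (12.99 and 13.12).

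**Figure D4:**
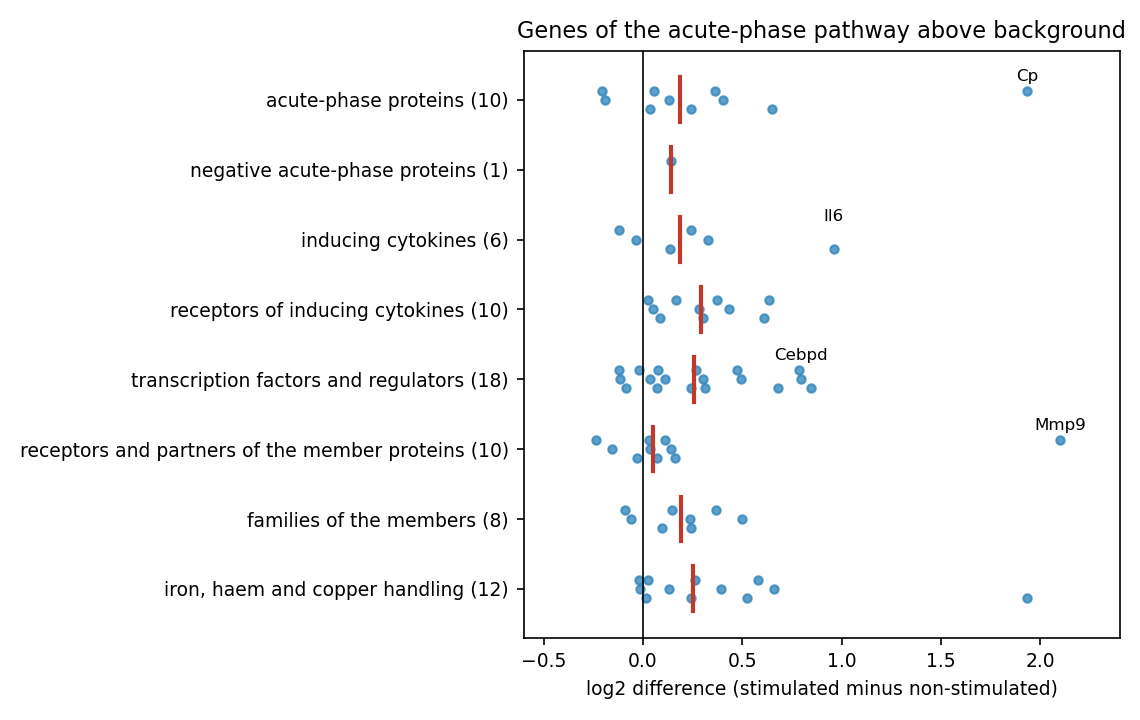
Log2 difference (stimulated minus non-stimulated, horizontal axis) of the genes above background in 8 lists, with the number of genes in brackets and the list's median as a red bar. Points are single genes on 1 array per condition. Cp (in 2 of the lists) and Mmp9 stand apart to the right near 1.93 and 2.10, and the medians lie between 0.05 and 0.29.

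Some of these genes are also products of other cells, so marker genes were read beside them. A source label of both samples names eosinophils, whereas the title and protocols name myofibroblasts. All 14 fibroblast markers were above background on both arrays, with Fn1 (13.28 and 13.31) and Vim (13.10 and 13.16) highest. Of these 14 genes 6 read higher and 8 lower on the stimulated array, and the median difference was -0.03. The contractile and cytoskeletal genes Acta2 (13.07 and 12.78), Tagln (11.08 and 10.68), Myl9 (11.55 and 11.21) and Des (7.85 and 7.23) and the fibroblast protease gene Fap (8.10 and 7.62) were lower. The growth factor receptor gene Pdgfra (9.10 and 9.66) was higher. The part of these markers in the differences of Saa3, Steap4 and Lcn2 was not tested. Lcn2 and Hp are neutrophil granule products, and Saa3 is made by macrophages. Of 11 neutrophil markers 2 were above background, Elane (5.65 and 5.79) and Cxcr2 (5.73 and 5.80). The list's summed linear signal was 320 without and 315 with homogenate. This sum and those that follow take in all markers of a list on the array, most of them under background. Sums of like size therefore do not show that such cells were unchanged. The defining neutrophil genes S100a8 (2.69 and 3.55), S100a9 (5.44 and 4.96) and Ly6g (3.85 and 3.38) were under background on both arrays. Of 13 macrophage and monocyte markers 4 were above background, led by Cx3cr1 (6.57 and 6.81) and Cd68 (6.31 and 6.52), with summed signals of 580 and 602. Among them Lyz2 (5.15 and 5.66) was above background on the stimulated array alone, and its part in the difference of Saa3 was not tested. Of 9 eosinophil markers 2 were above background on at least 1 array, Cebpe (5.91 and 5.46) and Alox15 (5.68 and 5.87), with summed signals of 290 and 269. The granule protein genes Epx (4.73 and 5.25) and Prg2 (4.75 and 4.32) were under background with and without homogenate.

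Markers of hepatocytes and epithelial cells, which make Saa1, Saa2, Hp and Lcn2, were read as well. Of 8 hepatocyte markers 3 were above background on at least 1 array, with Hnf4a (6.10 and 5.98) and Apoa1 highest. Tat (5.32 and 5.62) passed on the stimulated array alone, and its part in the differences of Saa3, Steap4 and Lcn2 was not tested. Alb (4.86 and 5.07) was under background, and the summed signals were 345 and 358. Of 13 epithelial markers 4 were above background, with Krt8 (6.45 and 6.23) and Muc2 (5.99 and 6.12) highest and Epcam (4.35 and 4.49) under it, with sums of 508 and 492. Krt8 and Hnf4a read at or near the level of Hp (6.05 and 6.03). The part of epithelial cells and hepatocytes in the readings of Lcn2 and Hp was not tested. Of 7 endothelial markers 4 were above background, led by Egfl7 (6.24 and 6.33) and Pecam1 (5.87 and 5.83), with sums of 325 and 345. Of 6 pan-leukocyte markers 4 passed the background level, with Cd53 (9.73 and 9.56) and Cd37 (6.21 and 6.10) highest, both lower on the stimulated array, and Ptprc (4.16 and 3.95) under background. Of these 4 genes 3 read lower with homogenate and 1 higher, the integrin gene Itgb2 (5.40 and 5.66), which was above background on the stimulated array alone. The summed signals of the pan-leukocyte list were 1069 and 973. The part of leukocytes in the differences of Saa3 and Lcn2 was not tested. Of 6 adipocyte markers 3 were above background on at least 1 array. Plin1 (6.04 and 6.12) and Retn (5.64 and 5.52) were highest, Adipoq (4.71 and 4.82) was under background, and Fabp4 (4.74 and 6.03) was above it on the stimulated array alone. Fabp4 differed by 1.29 as measured, past 2-fold, and its bound was at least 1.36-fold. The summed signals of the adipocyte list were 225 and 272. The part of Fabp4-expressing cells in the differences of Saa3, Steap4 and Lcn2 was not tested. S100a8, S100a9, Ly6g, Lyz2, Epx, Prg2, Alb, Tat, Epcam, Ptprc, Itgb2, Adipoq, Fabp4, Acta2, Tagln, Myl9, Des, Fap and Pdgfra were named after their values were seen.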

How the data were processed

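RNA of mouse intestinal myofibroblasts was measured on 2 arrays, each of RNA pooled from 3 cultures. The log2 values were deposited by the authors, 1 per probeset and array, after Affymetrix Expression Console and RMA per the submitters' processing notes (version: not given in the sources used here). The method equalises the distributions of the arrays, so differences are relative to all other probesets.

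Probesets paired with 1 gene by the platform annotation (23521 of 41345) were used, with symbols updated through the RefSeq gene table for 23328, and the probeset with the highest mean stood for a gene. Values under background give bounds against the background level. With 1 array per condition there was no test and no p-value, and precision is limited by the number of arrays. The 7 genes and all lists were chosen with earlier results of these data known. Named in the text were these 7, from each list the 3 genes above background with the largest differences and the highest reading, from each marker list the 2 highest readings, the 3 genes nearest in difference to each of the 7 above background, and the 3 nearest genes on each side of those past 2-fold. Predicted genes, small RNAs and receptor genes were left out of the last 2 groups. Promoter windows came from RefSeq. Protein sequences were not used here. Alignments were global (Biopython 1.88: match 1, mismatch -1). The steps (Python 3.11.15) were tested on simulated data.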

Additional observations from a re-analysis of the deposited data

How the results depend on the processing

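With no replicate, a value was counted as moved when it changed by more than 0.1 on the log2 scale. Of 33 alternative values of the 5 differences given for Saa3, Steap4, Lcn2, Ptx3 and Hp, 31 stayed within that size and none changed sign. The 2 that moved came from raising values under background to the background level, which gave 2.76 for Steap4 and 0.90 for Lcn2. By construction, this raises the non-stimulated value. Many of the 33 could not change. Each of these 5 genes has a single probeset, so the settings on probesets return the same value. The background settings without raising decide only whether a gene is counted. Raising cannot alter Saa3, Ptx3 or Hp, which were above background on both arrays. The 31 are therefore not read as a sign of stability. Of the 7 genes, 3 were past 2-fold, and between 2 and 4 under the alternatives. Lcn2 left that count with values raised, with a 3-fold threshold and with a background at the 99th percentile, and Ptx3 joined it with a 1.5-fold threshold. With values raised and a 1.5-fold threshold, an alternative chosen after seeing the data, the count was 4. Of the list genes, 2 were past 2-fold (Cp and Mmp9) and 11 past 1.5-fold. Of 55 alternative medians of the 8 lists, 54 stayed within 0.1, and that of the inducing cytokines was 0.082 with values raised. Of the 55, 8 were over genes above background on both arrays and chosen after seeing the data. A limit of 0.1 is wide beside medians of this size. The median of receptors and partners went from 0.05 to -0.0002 without the background filter. That of the other acute-phase proteins went from 0.19 to 0.09 over genes above background on both arrays. Without the bases after the start, the kB consensus was found in 1 of the 6 windows. At the 99th percentile Lcn2 and Hp gave no value. Saa3, Steap4 and Ptx3 kept their differences as measured there, although their non-stimulated values were under that level. No paired analysis was possible because each condition has 1 array.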
